A study of Danio rerio with 12 samples.

Results

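Retinas of adult F3 zebrafish of the EK strain were profiled by RNA sequencing in a lineage founded by F1 eggs that spent 24 h in water with 0.03 µM methylmercury (MeHg, an organic mercury compound), with ethanol as the vehicle. F2 and F3 fish met no added MeHg, so all 6 libraries described here share ancestral exposure and none was exposed directly. The libraries carry the replicate numbers 2 to 7 in the labels, which call them biological replicates. The sources used here do not say whether a library holds the retinas of 1 fish or of several, nor the sex and exact age of the fish. Of 12 labelled retina samples only these 6 enter the account, and no comparison with the other lineage was made. Values are FPKM, fragments scaled to transcript length and library size, which allows levels to be compared between genes of different length. Of 32674 genes in the table, 11627 averaged at least 5 FPKM across the 6 libraries, and these genes are the subject. Their spread is given as the coefficient of variation (CV), the standard deviation over the 6 libraries divided by their mean.

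The vertebrate retina turns light into nerve signals in rod and cone photoreceptors, passes them through bipolar cells to ganglion cells, and tunes them with horizontal and amacrine cells. Müller glia span the tissue, and the pigment epithelium behind it recycles the light-sensitive chromophore. Fish retinas carry many cones, keep a circadian clock in their photoreceptors and make melatonin there. Other tissues of the eye and around it, such as vessels, sclera, cornea and eye muscles, can be carried along in a dissection. In bulk RNA, fewer cells of a type and less RNA per cell cannot be told apart.

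The libraries held 6749645, 4354466, 4813530, 5352521, 5044083 and 4641649 assigned fragments for numbers 2 to 7, in that order, which is also the order of every list of 6 values below. The numbers only name the libraries and imply no sequence. Pearson correlations of log2(FPKM + 1) between libraries, taken across the 11627 genes, ran from 0.838 (libraries 4 and 6) to 0.935 (libraries 6 and 7). Genes are not independent replicates, so these values describe the libraries only. The first principal component of the genes with a mean of at least 50 fragments held 55.2% of the variance and placed libraries 3 and 4 (-30.0 and -31.3) opposite libraries 6 and 7 (33.6 and 38.5). Library 2 (-12.1) and library 5 (1.39) lay between them. The second held 20.3%, with libraries 4 (27.6) and 7 (18.6) on one side and the other 4 between -18.4 and -7.72. The genes with the strongest weight at the end of libraries 3 and 4 were the transglutaminase subunit gene f13a1a.1 and the keratins krt5 and krt15. At the other end they were the steroid hydroxylase gene cyp11c1, the small GTPase gene rab14 and the activin-binding follistatin gene fsta.

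**Figure D1:**
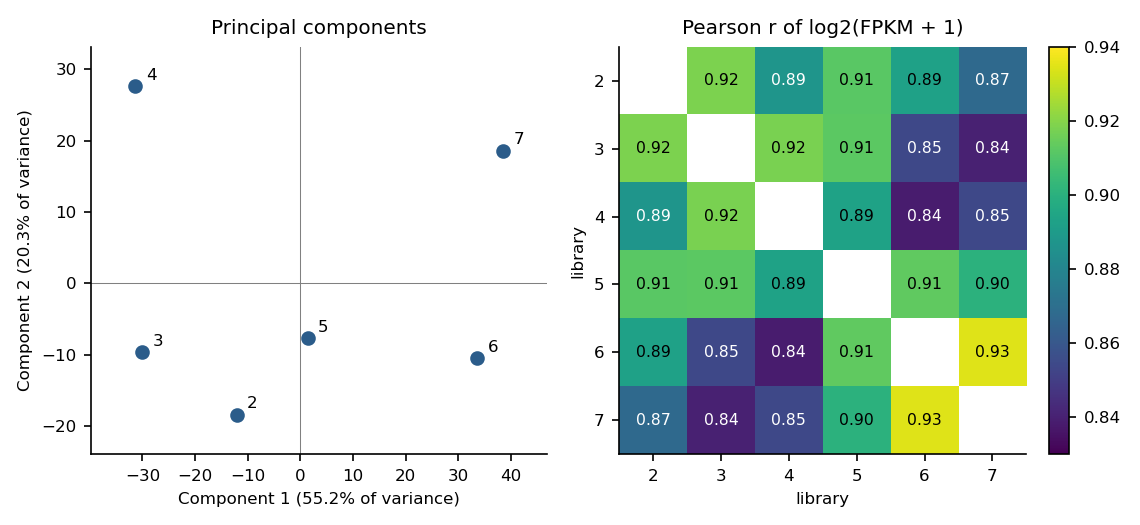
Left, scores of the 6 libraries on the first and second principal component of log2(FPKM + 1), each point labelled with its library number; right, Pearson r across 11627 genes for each pair of libraries. Libraries 6 and 7 are the most alike (0.935), and libraries 3 and 4 lie farthest from them on component 1.

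The most abundant transcripts belonged to the mitochondrial genome and to photoreceptors. By mean FPKM the 10 leading genes were mt-co1, mt-co2, mt-atp8, mt-co3, mt-atp6, gngt1, mt-cyb, opn1lw2, gnat1 and mt-nd1. The cytochrome oxidase gene mt-co1 led with 17525 ± 4626 FPKM (SD, n = 6). The leading nuclear gene was gngt1, the gamma subunit of rod transducin, with 6872 ± 722 FPKM (SD, n = 6), followed by the red cone opsin opn1lw2 with 5345 ± 1512 FPKM (SD, n = 6) and the rod transducin alpha subunit gnat1 with 5077 ± 646 FPKM (SD, n = 6). The levels of gngt1 and gnat1 differed little between libraries, with CVs of 10.5% and 12.7%, while that of mt-co1 was 26.4%. The rod opsin gene rho was listed at 0 in all 6 libraries although 19 of the 20 matched rod genes passed 5 FPKM. An exact 0 of an abundant gene can be a failed estimate, so nothing is said of its level.

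The median CV over the 11627 genes was 19.6%, with quartiles of 13.8% and 28.3%. A CV of at least 50% was found for 937 genes (8.06%) and one below 10% for 1127 (9.69%). Counting error alone would give a median CV of 7.96% at these depths, and the median left after subtracting the counting variance was 16.9%. Spread depended on level. The median CV was 22.4% for 3827 genes of 5 to 10 FPKM, 17.5% for 2690 genes of 20 to 50 FPKM and 26.5% for the 181 genes above 500 FPKM. Of those 181 genes, 13 were mitochondrially encoded and 55 cytosolic ribosomal protein genes.

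**Figure D2:**
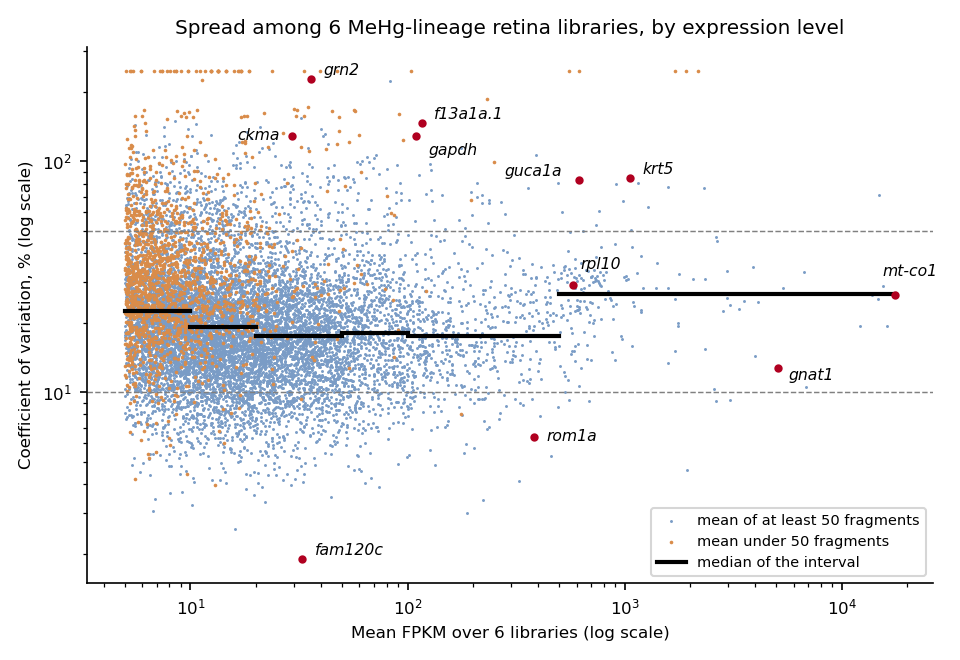
Coefficient of variation over the 6 libraries against mean FPKM for 11627 genes, both on log scales, with orange points for genes under 50 fragments on average, black bars for the median of each FPKM interval and dashed lines at 10% and 50%. The median lies between 17.5% and 26.5% in all 6 intervals, and the row of points at the top holds genes seen in 1 library only.

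The very largest CVs belonged to genes of short RNAs. The ceiling of 245%, which a gene reaches when it is above 0 in exactly 1 library, was met by 52 genes. Among the 20 named genes with the largest CV, 15 were 5S_rRNA genes, microRNA, small nucleolar RNA or spliceosomal RNA genes such as mir1788, which was listed at 620.3 FPKM in library 3 and at 0 in the other 5. Their mean was 0.167 or 0.333 fragments per library, so 1 or 2 fragments set the whole value. Such values carry no information on spread, and genes with a mean under 50 fragments (1647 of the 11627) made up 359 of the 937 genes with a CV of at least 50%. Of the other 9980 genes, 578 (5.79%) had a CV of at least 50%. The limit of 50 fragments was chosen after the values were seen.

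Among the genes with at least 50 fragments the granulin genes grn2 and grn1 had the widest spread, with CVs of 227% and 222%. For grn1, which encodes a granulin of the growth factor family, the values were 5.18, 16.5, 458, 7.63, 3.9 and 5.43 FPKM. For its neighbour in name grn2 they were 4.3, 3.36, 203, 4.93, 0 and 0.405 FPKM. Library 4 alone was high in each, and near-identical copies of a family may share fragments, which leaves the split between them uncertain. The coagulation factor XIII A gene f13a1a.1 had 146, 104, 438, 6.92, 0.115 and 0.0598 FPKM, high in libraries 2, 3 and 4, low in 5 and close to 0 in 6 and 7. The gene listed as F13A1 was likewise higher in libraries 2, 3 and 4 than in the other 3, with 6.83, 10.1, 27.3, 0.804, 0 and 0 FPKM. The class I antigen-presenting gene mhc1uba was present in libraries 2 and 6 and nearly absent elsewhere, with 106, 0, 0.102, 0.101, 87.7 and 1.04 FPKM. The collagen gene col10a1a and the secreted phosphoprotein gene spp1 had CVs of 121% and 141%. Of these, spp1 was highest in library 3 (77.8 FPKM), as was the tenascin gene tnw (33.3 FPKM), against at most 0.692 and 0.494 FPKM in libraries 6 and 7. The steroid hydroxylase gene cyp11c1 had the opposite arrangement, with 0.52, 1.35, 2.36, 5.82, 12.9 and 35.7 FPKM.

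The 20 named genes of narrowest spread had CVs within the range of counting error for the most part. The gene fam120c had the smallest CV of all, 1.89%, with 32.8, 32.7, 33.2, 31.8, 32.5 and 33.6 FPKM. The amino acid transporter subunit slc3a2b (3.01%) had 184, 195, 179, 186, 189.9 and 192 FPKM, and the splicing factor srsf5a (3.4%) had 222, 215, 224, 227, 231 and 211 FPKM. No library stood far from the others for any of these 3 genes. The other 17 of the 20 smallest CVs were between 2.56% and 4.11% and included tmem131, the glycosylation subunit rpn1, the RNA hydrolase rnaseh1, the atypical protein kinase prkci, the heterochromatin protein hp1bp3, the spliceosomal Sm protein gene snrpd3l and the peroxidase prdx5 (319.8, 350.5, 312, 328, 319 and 324 FPKM). For 16 of the 20, fam120c among them, the CV was below the one that counting error alone would give, so they cannot be ranked by it. The 4 whose CV exceeded it were slc3a2b, srsf5a, hp1bp3 and prdx5. All 20 stayed below 10% with any 1 library left out (at most 4.59%). All 20 also stayed below 10% after the libraries were rescaled to a common median ratio, though their CVs then ran from 3.99% to 8.31%. In the companion table of scaled fragment numbers, 18 of the 20 were below 10%, and fam120c (11%) and gpkow (10.1%) were not. Which gene is the steadiest thus depends on the scale.

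Gene lists for retinal cell types, for neighbouring tissues and for cell states were then described by the CV of their members and by a score, the median over members of the log2 deviation from each gene's own mean. Members are the listed genes that were matched and had at least 5 FPKM. A gene of low level can reach this mean through 1 high library, which favours wide spread among the members. Lists of retinal neurons had median CVs from 13.1% (rods) to 27.9% (cones), against 19.6% for all genes, and lists of blood, leukocytes, vessels, connective tissue, myelin, surface epithelium and muscle lay above them, from 44.3% (endothelium) to 126% (skeletal muscle), as the plot of scores by library and the plot of CVs by list show. Counts of members that were highest or lowest in a library are to be read against all 11627 genes. Of these, 31.2% were highest in library 7, 21.5% in library 6, 17.7% in library 4, 11.5% in library 5, 9.35% in library 3 and 8.82% in library 2. The lowest value lay in library 4 for 26.7%, in library 3 for 23.9%, in library 2 for 17.3%, in library 6 for 12%, in library 7 for 10.8% and in library 5 for 9.32%. Of the oocyte list none of the 11 matched genes reached 5 FPKM (the highest mean was 0.961 FPKM, of zp3b), and of 17 matched lens genes only cryba4 did.

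**Figure D3:**
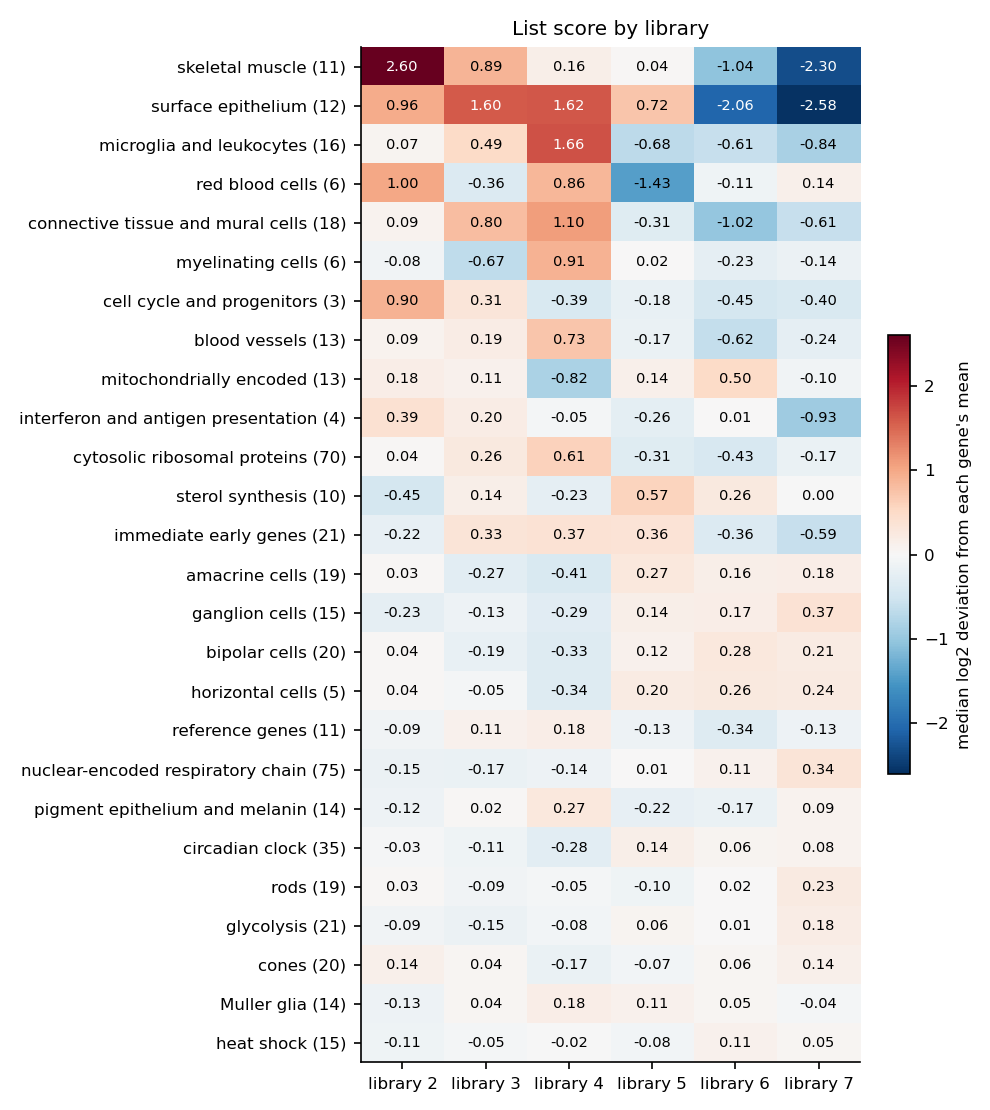
Score of each list in each of the 6 libraries, as the median log2 deviation of its members from their own means over the libraries, with the number of members in brackets and lists ordered by the range of the score. Skeletal muscle (2.60 to -2.30) and surface epithelium (1.62 to -2.58) have the widest ranges, and heat shock (0.11 to -0.11) the narrowest. The same score over all 11627 genes, not drawn, ran from -0.08 in library 3 to 0.10 in library 7, so scores of that size are not particular to a list.

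**Figure D4:**
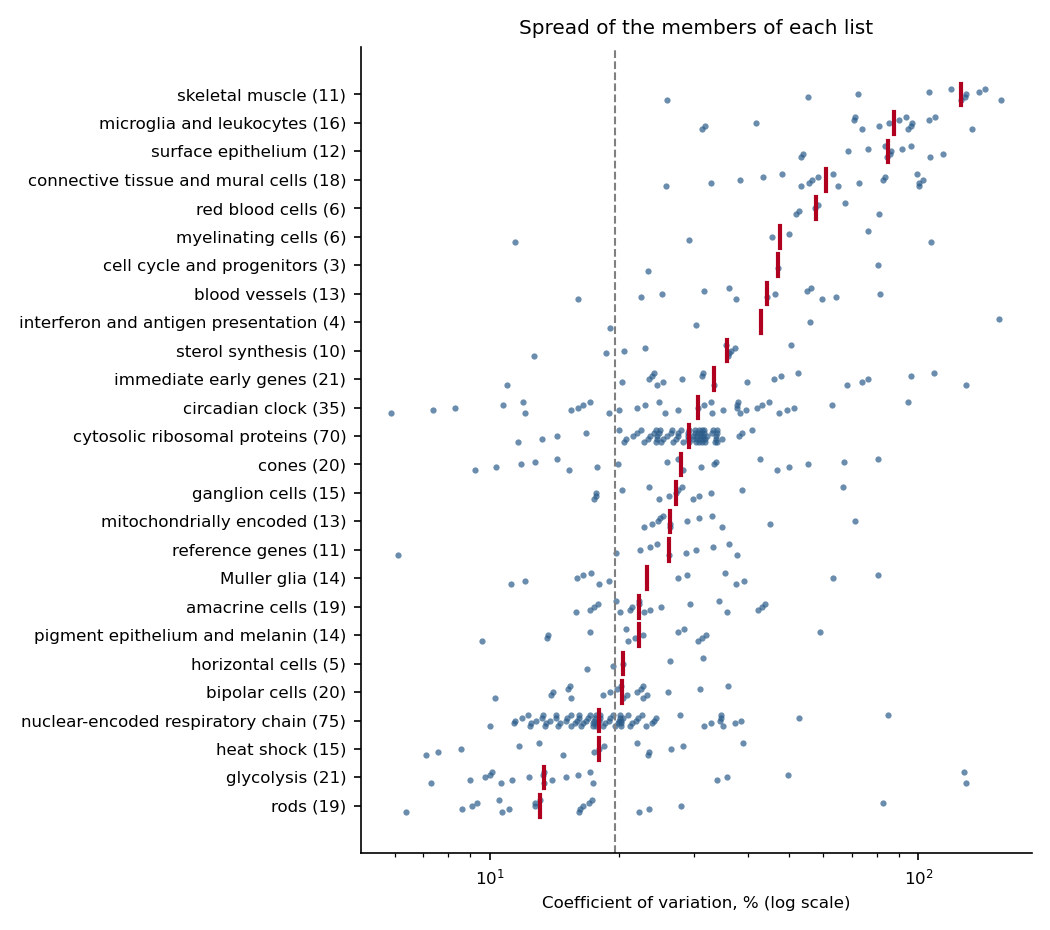
Coefficient of variation of every member of each list on a log scale, with red bars at the median of the list and a dashed line at the median of all 11627 genes (19.6%). Rods (13.1%) and glycolysis (13.4%) lie at the narrow end and skeletal muscle (126%) at the wide end.

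Rod genes formed the steadiest of the lists of cell types, with a median CV of 13.1% over 19 members, 4 of them below 10% (21.1%, against 9.69% of all genes) and 1 at or above 50% (5.26%, against 8.06%). Rods are the photoreceptors of dim light. The disc rim protein gene rom1a varied least (6.38%), with 394, 394, 370.3, 339, 407 and 391 FPKM, and the rod phosphodiesterase subunit pde6b (9.33%), the guanylate cyclase gucy2f (9.1%) and the exchanger slc24a1 (8.59%) were close to it. The rod transducin gene gnat1 had 4437, 4691, 4764, 4966, 5373 and 6229.5 FPKM, highest in library 7. The exception was guca1a, which encodes a calcium sensor that activates guanylate cyclase: its 235, 271, 194, 555, 1473 and 978 FPKM gave a CV of 82.9%. Libraries 5, 6 and 7 were all above libraries 2, 3 and 4 for guca1a, with a ratio of 7.61 between the highest and the lowest. The rod-specifying receptor nr2e3 (15.7, 14.2, 14.4, 9.1, 10.5 and 7.52 FPKM) was lower in libraries 5, 6 and 7 than in the other 3. For neither arrangement was the share of all genes counted.

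Cone genes had a median CV of 27.9% over 20 members, of which 3 (15%, against 8.06% of all genes) reached 50%. The cone transducin alpha subunit gnat2 had 2843, 2622, 1825, 2257, 2402 and 2137 FPKM, lowest in library 4. The blue opsin opn1sw2 (9.26%) and the ultraviolet opsin opn1sw1 (10.4%) varied little. The green and red opsins varied much more, and they lie in tandem arrays of near-identical copies, so that the split of fragments among copies is uncertain. For opn1mw2 the values were 1662, 1145, 1793, 209, 596 and 473 FPKM, and for opn1mw3 they were 496, 332, 296, 755, 868 and 1098 FPKM. The first was highest in libraries 4 and 2 and lowest in 5, the second highest in 7 and lowest in 4. Summed over opn1mw2, opn1mw3 and opn1mw4, green opsin came to 3067, 1998, 2355, 2083, 2536 and 2346 FPKM, a CV of 15.9%. Summed over opn1lw1 (CV 46.8%) and opn1lw2 (28.3%), red opsin came to 7639, 7208, 6132, 7664, 9367 and 9842 FPKM, a CV of 17.4%. The sums were thus steadier than the single copies. The cyclase activator genes guca1c and guca1d, whose CVs were 55.3% and 80.7%, were highest in library 3 and lowest in library 7, with 169, 194, 93.8, 66, 71.1 and 51.4 FPKM for guca1c.

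Lists of inner retinal neurons differed in how far their members moved together. The mean Pearson r over pairs of members was 0.61 for amacrine, 0.49 for bipolar, 0.34 for ganglion and 0.10 for horizontal cells, where the median r over pairs of all genes was 0.08 and the mean 0.06. Bipolar cells, which relay photoreceptor signals, had a median CV of 20.3% over 20 members, none at 50%, and 15 of the 20 were lowest in library 4 (26.7% of all genes were). The transcription factor vsx1 had the largest bipolar CV (36%), with 117, 73.4, 61.2, 98.3, 148 and 159 FPKM, and the cation channel trpm1a the smallest (10.3%). The calcium-binding gene cabp5a had 489, 413, 386, 529, 467 and 585 FPKM.

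Amacrine genes, of the mostly inhibitory interneurons, had a median CV of 22.3% over 19 members, again with none at 50%, and 11 were lowest in library 4 (26.7% of all genes). The GABA-synthesizing enzyme gad2 had 131, 106, 88.2, 165, 153 and 143 FPKM and its relative gad1b 502, 493, 522, 698, 645 and 675 FPKM, in each case higher in libraries 5, 6 and 7 than in 2, 3 and 4. How many of all genes have this arrangement was not counted, so it is not given as particular to amacrine genes. The neuropeptide genes sst1.1 (43.9%) and npy (42.3%) and the eye-field factor pax6b (43.3%) had the widest spread of the list. The 5 horizontal cell members had a median CV of 20.4%, from 16.8% (prox1a) to 31.5% (the connexin cx52.9). Ganglion cells, whose axons form the optic nerve, gave 27.3% over 15 members, and 10 of the 15 were highest in library 7 (31.2% of all genes). The RNA-binding protein gene rbpms2b had 88.2, 109, 137, 106, 106 and 139 FPKM and the synuclein gene sncga 112, 138, 115, 162, 171 and 159 FPKM. The surface glycoprotein gene thy1 went the other way, with 36.6, 57.8, 76.3, 25.2, 14 and 15.1 FPKM and a CV of 66.6%, highest in library 4.

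Müller glia and pigment epithelium gave medians of 23.2% and 22.3% over 14 members each. The retinaldehyde-binding protein rlbp1a had 229.8, 203, 200.3, 257, 298 and 289 FPKM, highest in libraries 6 and 7. The glutamate transporter slc1a2a varied least (11.2%). The intermediate filament gene gfap had 15.8, 19.1, 17.1, 37, 23.3 and 16.7 FPKM, highest in library 5. Both listed genes above 50% in the Müller glia list, the prostaglandin D synthase gene ptgdsb (80.6%) and the ictacalcin gene icn (63.2%), had low libraries 6 and 7: ptgdsb had 523, 1057, 738, 544, 39.4 and 49 FPKM and icn 1223, 2431, 1758, 1531, 359 and 379.9 FPKM. The keratin gene krt5 of the surface epithelium list was also low there (51.7 and 34.5 FPKM). The mean r over pairs of the Müller glia list was -0.03, so ptgdsb and icn are not read here as measures of Müller glia. The isomerohydrolase rpe65a of the visual cycle had 90.3, 73.1, 74, 73.6, 91 and 147 FPKM, with library 7 apart from the rest, and the pigment gene tyrp1a (59%) had 9.76, 13.5, 28.6, 7.88, 6.63 and 15.5 FPKM, highest in library 4. Of the 14 pigment epithelium members 9 were highest in library 4 (17.7% of all genes were).

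Surface epithelium set libraries 6 and 7 apart. All 12 members had a CV of at least 50% (100%, against 8.06% of all genes), the median was 85.0%, and the mean r among members was 0.85. The keratin gene krt5 had 1157, 2152, 1911, 1047, 51.7 and 34.5 FPKM, a ratio of 62.4 between the highest and the lowest library. The adhesion molecule gene epcam had 48.3, 86.3, 119, 76, 5.49 and 0.576 FPKM and the junction gene cldni 30.6, 63.1, 51.2, 31.8, 1.22 and 0.562 FPKM. For each of these genes every value of libraries 2 to 5 lay above those of libraries 6 and 7, an arrangement whose share over all genes was not counted. The keratins krt8 and krt18 varied least (53.9% and 53.2%). Summed over the list, epithelial FPKM ran from 241 in library 6 to 3208 in library 4. With library 7 left out the median CV was 65.8% and with library 6 left out 67.3%, so a wide spread did not rest on 1 library. Keratin paralogs may share fragments.

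Connective tissue genes had a median CV of 60.9% over 18 members, 13 of them at or above 50% (72.2%, against 8.06% of all genes). The type I collagen gene col1a1a had 53.5, 158, 163, 37, 4.84 and 5.68 FPKM and col1a2 had 49, 118, 142, 27.7, 6.05 and 7.85 FPKM, both high in libraries 3 and 4 and low in 6 and 7. The smooth muscle actin gene acta2 had 47.5, 62.8, 117, 37.9, 24.2 and 45.3 FPKM. In this list 12 members were highest in library 4 (17.7% of all genes) and 14 lowest in library 6 (12% of all genes). The corneal proteoglycan gene kera was an exception with 537, 532, 534, 665, 927 and 1221 FPKM, highest in library 7 and lowest in library 3.

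Skeletal muscle genes were led by library 2. Their median CV was 126% over 11 members, 10 of which reached 50% (90.9%, against 8.06% of all genes), and 10 were highest in library 2 (8.82% of all genes). Only 11 of the 23 matched genes reached the mean of 5 FPKM, and a high library 2 can carry a gene over it. The actin gene acta1b, for example, averaged 5.15 FPKM with 10.3 FPKM in library 2. These counts are therefore not independent of the limit. The muscle creatine kinase genes ckma and ckmb had 103, 32.1, 14.7, 20.8, 4.41 and 0.712 FPKM and 149, 46.4, 19.1, 15.4, 9.37 and 0.97 FPKM, and the fast myosin light chain mylpfa 143, 46.8, 25.7, 20.6, 8.68 and 0.619 FPKM. Each was highest in library 2 and lowest in library 7. With library 2 left out the median CV of the list was 81.8%. The enzyme genes gapdh and aldoab, members of the glycolysis list, were likewise highest in library 2: gapdh had 388, 97.7, 57.2, 74.5, 36.9 and 3.12 FPKM (CV 128%) and aldoab 22.2, 5.43, 4.46, 3.57, 0.819 and 0.848 FPKM.

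Genes of microglia and leukocytes were led by library 4, in which 15 of the 16 members were highest (17.7% of all genes). Their median CV was 87.7%, with 13 members at or above 50% (81.3%, against 8.06% of all genes). The complement gene c1qb had 10.8, 15.8, 66.7, 5.24, 4.83 and 5.5 FPKM, the antigen-presentation chaperone cd74a 173, 265, 453, 134, 72.8 and 77 FPKM and the actin regulator coro1a 9.79, 16.6, 48.4, 8.64, 9.11 and 8.46 FPKM. Library 4 exceeded every other library for each of these genes. Only the apolipoprotein gene apoc1 (77, 90.2, 41.8, 56.7, 101 and 60.2 FPKM) was lowest there. Without library 4 the median CV was 51.6%, against 17.9% for all genes without it. Endothelial genes had a median CV of 44.3% over 13 members, and 30.3% without library 4. Of the 13 members, 11 were highest in library 4 (17.7% of all genes). The endothelial cadherin cdh5 had 22.4, 19.8, 26, 16.3, 16 and 14.8 FPKM and the diaphragm protein gene plvapa 13.9, 25.7, 51.6, 12.1, 9.69 and 8.85 FPKM.

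Red blood cell genes had a different order of libraries. All 6 members had a CV of at least 50% (100%, against 8.06% of all genes), and 5 of the 6 were lowest in library 5 (9.32% of all genes). The beta globin gene ba1 had 1718, 661, 2743, 186, 582 and 1045 FPKM, with libraries 4 and 2 highest. The heme synthesis enzyme alas2 had 20.6, 7.06, 16, 2.58, 12 and 8.49 FPKM, highest in library 2. Myelin genes, of optic nerve sheath cells, were all highest in library 4 (17.7% of all genes were). The myelin basic protein gene mbpa had 311, 87.4, 892, 296, 332 and 242 FPKM and the myelin protein gene mpz 8.32, 2.7, 37.1, 8.64, 6.9 and 7.07 FPKM, lowest in library 3 in each case. The glial lineage factor sox10 (11.5%) did not share this spread. Among the 3 members of the cell cycle and progenitor list the retinal homeobox gene rx1 was high in library 2 (72.8, 29.2, 17.6, 15.7, 16.8 and 16.1 FPKM), and rx2 had a like order (36.8, 28.9, 14.2, 16.8, 13.6 and 14.3 FPKM). The other member, pcna, did not share it and was highest in library 4 (48.6, 42.2, 71.7, 42.5, 41.4 and 48.7 FPKM). The mean r over pairs of the list was 0.21, so rx1 and rx2 are not read here as measures of progenitors.

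**Figure D5:**
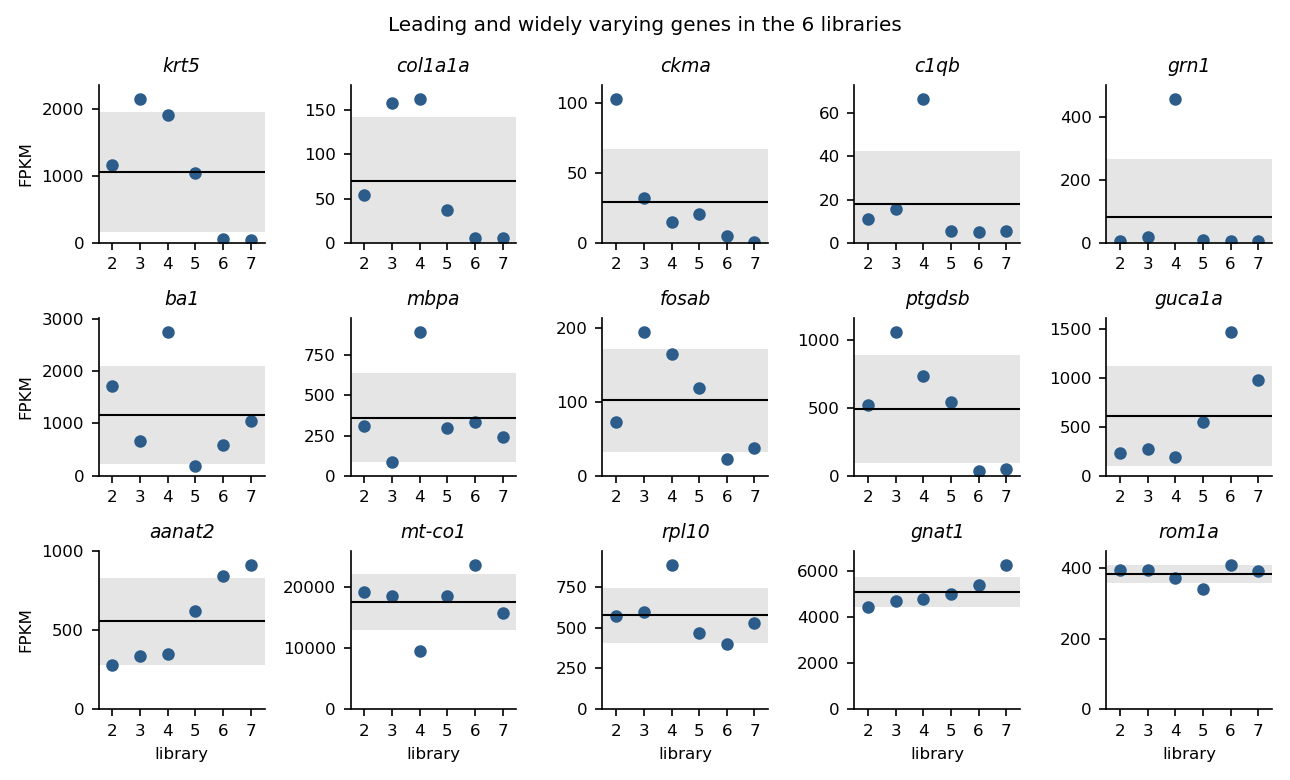
FPKM of 15 genes in each of the 6 libraries on linear axes from 0, with the line at the mean and the grey band at the mean ± SD. Libraries 6 and 7 are low for krt5, col1a1a, fosab and ptgdsb, library 2 is high for ckma, library 4 is high for c1qb, grn1, mbpa and rpl10 and low for mt-co1, and gnat1 and rom1a are steady.

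Transcripts of the mitochondrial genome and of cytosolic ribosomes moved as blocks in library 4. All 13 mitochondrially encoded genes were lowest in library 4 (26.7% of all genes) and highest in library 6 (21.5% of all genes). Every 1 of their 78 pairs had r of at least 0.8, against 6.32% of pairs of all genes. The oxidase gene mt-co1 had 19135, 18534, 9594, 18501, 23573 and 15812 FPKM. Mitochondrial genes took 4.57% of the assigned fragments in library 4 and 6.93% to 9.87% in the other 5. The median CV of the list was 26.4%, and 15% without library 4. The short gene mt-atp8 (CV 71.3%) overlaps mt-atp6, which makes its own value uncertain. Of 70 ribosomal protein genes 68 were highest in library 4 (17.7% of all genes) and 52 lowest in library 6 (12% of all genes). Their median CV was 29.2%, and 20.2% without library 4. For rpl10 the values were 573, 594, 883, 469.9, 399 and 531 FPKM. No ribosomal gene reached a CV of 50%, and the mean r among them was 0.88. Nuclear genes of the respiratory chain did not follow the mitochondrial ones: 54 of 75 were highest in library 7 (31.2% of all genes were), and the median CV was 18%. The ATP synthase subunit atp5a1 had 517, 476, 593, 638, 569 and 868 FPKM. The complex I subunit ndufs8b (85%) had 62.3, 14.6, 18.5, 71, 125 and 17 FPKM, high in libraries 2, 5 and 6.

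Glycolysis, heat shock and sterol genes differed in steadiness. Glycolysis had a median CV of 13.4% over 21 members, and the phosphofructokinase pfkpa the smallest CV (7.29%). The photoreceptor-rich isoform gapdhs had 1434, 1418, 1418, 1652, 1670.0 and 1955 FPKM. Its CV was 13.4%, and 8.02% after the libraries were rescaled to a common median ratio. Heat shock genes gave 18% over 15 members, with none at 50%. The constitutive chaperone hspa8 had 339, 411, 500.2, 322, 277 and 326 FPKM, highest in library 4. Sterol synthesis genes gave 35.8% over 10 members, 7 lowest in library 2 (17.3% of all genes) and 7 highest in library 5 (11.5% of all genes). The epoxidase sqlea had 2.58, 8.72, 7.92, 15.2, 7.08 and 7.24 FPKM and the reductase hmgcra 6.71, 9.24, 9, 9.83, 8.71 and 9.62 FPKM. Among 11 genes commonly used as expression references the median CV was 26.1%, above that of all genes. The actin gene actb1 had 651, 819, 1343, 811, 579 and 721 FPKM and the elongation factor eef1a1l1 1339, 1785, 2219, 1198, 855 and 1036 FPKM, each highest in library 4, while lsm12b (6.1%) was steady. Of 4 members of the interferon and antigen-presentation list, b2m, the light chain of class I molecules, had 210.4, 303, 246, 124, 82.1 and 65 FPKM, highest in library 3 and lowest in 7.

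Immediate early genes, transcription factors and signalling genes that respond to stimuli within minutes, had a median CV of 33.4% over 21 members, 7 of which reached 50% (33.3%, against 8.06% of all genes), and 10 were lowest in library 7 (10.8% of all genes). The transcription factor fosab had 72.6, 195, 166, 119, 22.4 and 37.8 FPKM and junba 23.9, 71.7, 83.1, 61.2, 25.8 and 30.6 FPKM. Libraries 3, 4 and 5 exceeded 2, 6 and 7 for each, and the share of all genes with that arrangement was not counted. The flow-responsive factor klf2a had 152, 226, 87.1, 43.4, 14.8 and 9.92 FPKM, high in 2 and 3, and the nuclear receptor nr4a1 3.91, 14.7, 7.09, 32.7, 3.01 and 2.98 FPKM, highest in 5. The stress gene gadd45ba had 138, 140.1, 139, 210.1, 296 and 201 FPKM, highest in 6, and ier5 (11%) varied least.

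Circadian clock genes included steady and widely varying members, in shares close to those of all genes. Their median CV was 30.5% over 35 members, against 19.6% for all genes. Of the 35 members, 3 (8.57%, against 9.69% of all genes) were below 10% and 3 (8.57%, against 8.06% of all genes) at or above 50%. The activator arntl1b had 54.4, 48.6, 49.8, 56.3, 53.4 and 49.8 FPKM (5.89%), the light-responsive repressor cry1a 88.1, 92.1, 98.9, 101, 87.7 and 104 FPKM (7.37%) and per2 69.6, 64, 72.6, 68.3, 56.9 and 68.8 FPKM (8.29%). These are the 3 steady members. The repressor bhlhe40 (94.6%) had 53, 28.1, 17.1, 7.06, 6.49 and 5.76 FPKM, highest in library 2. The nuclear receptor nr1d4b (62.7%) had 6.88, 5.4, 5.14, 13.6, 21.3 and 21.7 FPKM, and the activator arntl2 11.6, 13.5, 12.8, 26.4, 27.2 and 30.4 FPKM. For nr1d4b and arntl2 libraries 5, 6 and 7 exceeded the other 3 without overlap. The first principal component (55.2% of the variance) likewise had negative scores for libraries 2, 3 and 4 and positive scores for 5, 6 and 7. How many of all 11627 genes have this arrangement was not counted, so it is not given as particular to clock genes.

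The genes of melatonin synthesis had this same division, a grouping made after their values were seen and without the share of all genes that have it. The penultimate enzyme aanat2 had 280.4, 339, 349.6, 625, 842 and 912 FPKM. The last enzyme asmt had 19.8, 24.5, 25.8, 40.5, 42.6 and 53.5 FPKM, and tph1a, which hydroxylates tryptophan at the first step, 19.5, 30.4, 32.3, 55.54, 141 and 203 FPKM. All 3 enzymes were higher in libraries 5, 6 and 7 than in 2, 3 and 4. The homeobox gene otx5, expressed in photoreceptors and the pineal organ of zebrafish, had 108, 107, 129.7, 159, 262 and 335 FPKM, and the repressor gene cry2a had 478, 474, 485, 766, 946 and 726 FPKM. No source used here gives the hour of collection, and its part in these values was not tested.

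To see which variable genes moved together, the 578 genes with a CV of at least 50% and at least 50 fragments were grouped by average linkage on the correlation of log2 values, joining at r of 0.7. These sets were formed on the values they describe and carry no test. The largest held 291 genes with median log2 deviations from each gene's own mean of 0.17, 1.06, 1.08, 0.14, -1.09 and -1.19. It contained 10 surface epithelium members, 9 of connective tissue, 7 of leukocytes and 4 immediate early genes. The next held 87 genes, high in library 4 (-0.19, 0.35, 1.14, -0.38, -0.75 and -0.25), among them grn1, grn2 and 4 leukocyte members. The third held 53 genes with negative median deviations in libraries 2, 3 and 4 and positive ones in 5, 6 and 7 (-0.90, -0.76, -0.47, 0.18, 0.88 and 0.99). It was opposite in sign to the first in libraries 2, 3, 4, 6 and 7, but library 5 was positive in each. It included guca1a, nr1d4b, tph1a, otx5 and the polyamine genes odc1 and oaz1a. Ornithine decarboxylase, odc1, had 116, 126, 154, 237, 249.9 and 546 FPKM and its antizyme oaz1a 501, 430.1, 456, 552, 1193 and 1278 FPKM, and the activin antagonist fsta had 12, 31.7, 45.6, 136, 249 and 203 FPKM. All 3 were highest in library 6 or 7, as were many genes (21.5% of all genes in library 6 and 31.2% in library 7), so this is not particular to them. The fourth held 46 genes with 8 muscle and 3 cone members, highest in library 2 (1.14, 0.96, 0.23, -0.12, -0.72 and -1.55). The cone members there were opn1mw2, guca1c and guca1d.

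Whether single marker genes tracked the rest of the transcriptome was tested with limma, fitting each gene's log2(FPKM + 1) on that of the marker over the 6 libraries (4 residual degrees of freedom, Benjamini-Hochberg adjustment over 11626 genes, threshold 0.05). With rlbp1a as the marker 452 genes (3.89%) passed, 112 in the same direction (0.963%) and 340 in the opposite (2.92%). The opposite genes included col1a2, with a slope of -7.36 ± 0.36 (SE) per log2 unit of rlbp1a and a limma adjusted p of 0.00123. They also included col1a1a, col1a1b, sat1a.1 and thy1. Of the lists, 10 of 18 connective tissue members, 7 of 12 surface epithelium members, 6 of 16 leukocyte members and 9 of 70 ribosomal members passed in the opposite direction. So did 3 of 13 blood vessel members and 4 of 21 immediate early members. Of the 13 other Müller glia members, 0 passed in the same direction and 2 in the opposite, and 6 had a positive slope. The mean r over pairs of that list was -0.03, so rlbp1a is not read here as a measure of Müller glia. The same direction held nr1d4b (3.48 ± 0.32, limma adjusted p = 0.0107), opn1mw3, arl13a, DTX4 and the calcium channel subunit cacna2d4a, with 3 of 20 bipolar members. The count rested on single libraries: it was 0 without library 6, 1 without library 3, 12 without library 7, 33 without library 4, 247 without library 2 and 320 without library 5.

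With fosab as the marker 91 genes (0.783%) passed, 86 in the same direction (0.74%) and 5 in the opposite (0.043%). The same direction held the calpain inhibitor cast (0.81 ± 0.06, limma adjusted p = 0.0257), the calpain capn2b, the epithelial genes perp and dspa and the flow-responsive klf2b. Of the immediate early list, 1 of the 20 other members passed. So did 3 of 12 surface epithelium, 3 of 18 connective tissue and 2 of 14 Müller glia members, all in the same direction. The opposite direction included kdm7aa and crcp. Without library 3, 4, 5 or 6 no gene passed, without library 7 41 did and without library 2 95. The summed FPKM of surface epithelium genes in the same libraries ran from 241 to 3208, and its part in this count was not tested.

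No gene passed for the pigment epithelium marker rpe65a, the cone marker gnat2, the hemoglobin gene hbaa2, the clock gene per2 or the number of assigned fragments. Between its lowest and highest library rpe65a changed 2.02-fold, gnat2 1.56-fold, hbaa2 6.49-fold and per2 1.28-fold. The simulation for rpe65a recovered 9.2% of genes changed 2-fold over the range of the marker. With ranges this narrow, the 0 does not show that no gene follows rpe65a, gnat2 or per2. At an unadjusted limma p under 0.05 there were 1113 genes for rpe65a, 953 for gnat2, 542 for hbaa2, 453 for per2 and 164 for depth. Chance alone gives about 1 in 20 of the 11626 genes, or of 11627 for depth. The counts for hbaa2, per2 and depth lay below that share. Of the 13 other pigment epithelium members, 7 had a positive slope on rpe65a. Over the 27 leading genes of the lists, 351 pairs were tested by an exact permutation of the 6 libraries (two-sided, smallest possible p 0.00139), and 0 passed after Benjamini-Hochberg adjustment (smallest adjusted p 0.163 by Pearson and 0.195 by Spearman). Over 351 pairs, many would have to lie at or close to the smallest possible p for any to pass. With 6 libraries this test could hardly pass a pair, so the 0 does not show that the pairs are unrelated. Unadjusted, 68 of the 351 pairs were under 0.05 by Pearson and 38 by Spearman, where chance gives at most about 1 in 20. The pairs share genes, so they are not independent. The r of largest size was that of rlbp1a with col1a2 (r = -0.995, rho = -1, exact permutation p = 0.00139 and 0.00278, adjusted 0.163 and 0.195), followed by cd74a with col1a2 (r = 0.975) and rlbp1a with cd74a (r = -0.970). The same smallest p-values came from hspa8 with rpl10 (r = 0.959, rho = 1) and from krt5 with b2m (r = 0.931, rho = 1). Without the libraries farthest from the median of the first gene, r was -0.991 for rlbp1a with col1a2 (libraries 4 and 6 left out), 0.946 for hspa8 with rpl10 (libraries 3 and 4 left out) and 0.876 for krt5 with b2m (libraries 6 and 7 left out). The chaperone gene hspa8 and the ribosomal gene rpl10 were both highest in library 4 and lowest in library 6.

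Genes that set 1 library apart from the other 5 were found with Dixon's ratio, the gap to the nearest library over the whole range, above its 95% critical value for 6 samples. Of 9980 genes with at least 50 fragments, 527 (5.28%) did so, where chance flags about 1 in 20. Library 7 was high in 148 of them and library 4 in 131, and library 4 was low in 65. By that rule library 7 was high for the G-protein regulator rgs6, with 34.2, 36.9, 34.5, 33.8, 34.5 and 51.4 FPKM, for the prohibitin gene phb2a and for fryl, with 64.9, 51.5, 65.4, 72, 64.6 and 146 FPKM. It was low for the phosphatase gene dusp6, with 160.4, 149.6, 147, 155, 154 and 121 FPKM. Library 4 was high for grn1, grn2 and the galectin-binding gene lgals3bpb (27.9, 38.3, 76.2, 28, 28.9 and 27.6 FPKM) and low for ccdc136b, the mitochondrial ribosomal gene mrps21 and tmbim4 (83.1, 87.4, 58.2, 82.8, 82.4 and 81.6 FPKM). Libraries 4 and 7 held the most genes of this kind. The total of 5.28% was close to the share that chance flags, so these counts and genes are given as description only.

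The remaining libraries had fewer such genes. Library 2 was high for dedd1, rx1 and gapdh and low for the endosomal GTPase rab5aa (44, 54.6, 57.6, 57.4, 57.4 and 60.7 FPKM) and klhl18. Library 3 was high for spp1, rpz2 and alcama and low for the histone methyltransferase gene ezh1 (35, 24.2, 36, 38.3, 34.2 and 37.6 FPKM), dip2cb and the dynamin gene dnm1a. Library 5 was high for josd2, rab11ba and gfap and low for the polarity gene mpp5a (31.8, 32.2, 32.2, 28.2, 32.3 and 32.2 FPKM). Library 6 was high for the retinoid receptor rxrbb (22.9, 22.8, 22.2, 22.8, 28.9 and 23.2 FPKM), eif4ba and cpt1aa and low for hax1 and cndp2. Some of these single-library differences were small: mpp5a had a CV of 5.16% and rxrbb of 10.5%. In scaled fragment numbers the CV of mpp5a was 12.2%, that of rxrbb 19.6% and that of eif4ba 8.17% in place of 21.4%.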

How the data were processed

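F3 retinal RNA was made into TruSeq libraries and read from both ends for 100 bases, with 12 libraries in a lane, per the labels' protocols. The submitters' processing notes name CASAVA 1.8.2, cutadapt, FastQC, TopHat, Cuffnorm and the build Zv9; annotation, strand setting and other versions were not given in the sources used here. The authors deposited FPKM per gene, and a companion table of scaled fragment numbers, a signal rather than raw counts: per library 98.3% to 98.5% of its values fell on whole multiples of a step particular to that library (tolerance 0.01). These steps gave the assigned fragments. No count model was used. Each deposited file has 1 value column with no name, which was not used.

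Genes averaging 5 FPKM or more were kept. The CV is the SD over the mean of 6 libraries. Fits used limma 3.58.1 (R 4.3.3) on log2(FPKM + 1). Where a planned marker was not matched or averaged under 5 FPKM, the next gene of its list that reached 5 FPKM stood in. These were rlbp1a for glula, hbaa2 for hbaa1 and per2 for nr1d1. On simulated data for the rpe65a fit (11627 genes, 5 runs of 200 changed genes) recovery was 9.2% at 2-fold, 64% at 4-fold, 84% at 8-fold and 91.2% at 16-fold over the range of the marker, and 3.72% of calls were false. The simulated noise was independent between genes, whereas the genes here vary together, and no other marker was simulated. The false share therefore does not carry over to the counts for rlbp1a and fosab. Exact permutation used all 720 pairings (Python 3.11.15, numpy 2.4.6, scipy 1.17.1).

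Named genes are the 10 of highest mean, the 20 of largest and of smallest CV, the leading and extreme members of each list, up to 5 called genes per direction of each fit, and 3 genes per library and side by Dixon's ratio among those of at least 20 FPKM; others were chosen after their values were seen. Some genes that this rule picks are not reported here. Members and lists were chosen with earlier results of these data known. The table named 20495 genes, the reference list a further 1553, and 10626 had no symbol. Whether the 6 libraries came from separate fish is stated only as biological replicates. The p-values thus concern association between genes, or with depth, over these 6 libraries only, and the spread itself was not tested.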

Additional observations from a re-analysis of the deposited data

Results flagged for a closer look

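Among 183 genes named by the rules, 66 had 1 library whose gap to the nearest of the other 5 divided by the whole range (Dixon's ratio, given in brackets) exceeded the 95% critical value for 6 samples. Chance flags about 1 in 20 groups, and many of these genes were named because of that very ratio or a large CV, so the number says nothing about frequency. A ratio of 1.0 marks short RNA genes seen in 1 library from 1 or 2 fragments. Library 2 was above the others for 3 5S_rRNA genes (1.0 each), aldoab (0.784), atp2a1 (0.712), atp2a1l (0.695), ckma (0.693), ckmb (0.692), dedd1 (0.804), gapdh (0.754), myhz1.1 (0.777), mylpfa (0.675), pvalb3 (0.753) and rx1 (0.764). Library 2 was below the others for hmgcra (0.64), klhl18 (0.6251) and rab5aa (0.632). Library 3 was above the others for 5S_rRNA (1.0), alcama (0.65), mir1788 (1.0), rpz2 (0.679), snord22 (1.0), spp1 (0.703) and tnw (0.703). Library 3 was below the others for dip2cb (0.661), dnm1a (0.635) and ezh1 (0.71). Library 4 was above the others for 5S_rRNA (1.0), F13A1 (0.629), actb1 (0.686), c1qb (0.823), f13a1a.1 (0.667), grn1 (0.972), grn2 (0.976), klf4 (0.737), lgals3bpb (0.78), mbpa (0.696), mfap4 (0.821), mir124-5 (1.0), mpz (0.827) and pcna (0.761). Library 4 was below the others for ccdc136b (0.823), mrps21 (0.819) and tmbim4 (0.801). Library 5 was above the others for SNORA75 (1.0), gfap (0.647), josd2 (0.736) and rab11ba (0.664). Library 5 was below the others for mpp5a (0.894). Library 6 was above the others for 5S_rRNA (1.0), cpt1aa (0.766), dre-mir-2193 (1.0), eif4ba (0.834) and rxrbb (0.848). Library 6 was below the others for cndp2 (0.713) and hax1 (0.737). Library 7 was above the others for 5S_rRNA (1.0), cyp11c1 (0.648), fryl (0.784), lsm12b (0.63), phb2a (0.82), rgs6 (0.821), rnu6ataca (1.0), rpe65a (0.759) and vwa2 (0.654). Library 7 was below the others for dusp6 (0.645).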

How the results depend on the processing

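No paired analysis was possible because only 1 lineage is described and no pair of groups was compared. The number of genes with a CV of at least 50% (937) stayed between 807 and 1005 with 1 library left out, and was 255 among genes of at least 20 FPKM, 2933 among those of at least 1 FPKM, 9298 with no filter on low values and 578 among those of at least 50 fragments, a setting added after the data were seen. The median CV (19.6%) lay between 17.9% and 20.3% with 1 library left out and was 33.3% with no filter, since genes of few fragments enter. The number with a CV below 10% (1127) ran from 1138 to 1674 with 1 library left out. It was 1710 after rescaling by the median ratio, 2665 after subtracting counting variance, 2557 by the median absolute deviation and 519 among genes of at least 20 FPKM. After rescaling, 879 genes were below 10% in each scaling, 78.0% of the first set and 51.4% of the second, while 901 genes were at or above 50% in each (96.2% and 91.9%). Steadiness thus depends more on the scaling than wide spread does.

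The count of genes that varied with rlbp1a (452) ran from 0 (without library 6) to 320 with 1 library left out and was 286 among genes of at least 20 FPKM. The count for fosab (91) ran from 0 to 95 with 1 library left out. It was 147 in scaled fragment numbers, 192 at 1 FPKM, 50 at 20 FPKM and 1 with no filter, and the cause was not tested beyond the number of genes and libraries. For rpe65a (0) it ran from 0 to 11 with 1 library left out, with 11 without library 6 and 6 without library 7, and was 1 with a pseudocount of 0.1. The fits for gnat2, hbaa2, per2 and depth and the leading pairs gave 0 under each alternative that was run. With 1 library left out the smallest possible p of the pairs rises further, so their 0 there was all but fixed in advance. The gene hbaa2 could not be fitted at 20 FPKM or at 50 fragments because it lies below those limits. Of 168 named genes, the CV moved by over 1.5 times in 112 of 1331 recomputed values, 27 of them without library 4 and 38 under the other scalings. By scaled fragment numbers vwa2 had a CV of 15.5% in place of 172% and rbpms2b 6.15% in place of 17.5%. The limits of the account are 6 libraries of 1 lineage, estimates per gene that share fragments between near copies, no strand setting known, and counting error that dominates genes of few fragments.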
